A study of Mus musculus with 12 samples.

Results

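Macrophages from mouse melanomas treated with 2 agents aimed at myeloid cells were compared in a 2 by 2 design, and what is described is the interaction of the agents. It asks by how much the antibody's effect in mice on inhibitor chow departed from its effect in mice on normal chow. All 12 libraries of the series enter it, 12 of 12 in all, as 4 groups of 3. The Combination group received both the CD40 agonist, the antibody FGK4.5 injected intraperitoneally at 10 mg/kg every 3 days for up to 10 treatments, and CSF1Ri, the compound PLX6134 in chow at 600 mg/kg. The CSF1Ri group received that chow without the antibody, the CD40 agonist group received the antibody on normal chow, and Control received normal chow and the vehicle PBS. All 4 groups shared the same tumor model, in which local induction of mice carrying Tyr::CreER, an inducible Cre recombinase driven in melanocytes, started the tumors. The other alleles of the mice are not reported here, and the labels call the mice age-matched without giving an age. Dosing began 30 days after induction with tumors totalling less than 100 mm3 and ended after 30 days or at a tumor size of 2 cm3. Each library pooled at least 3 tumors. The tumors were digested and cleared of dead cells before RNA extraction, the labels name the cells tumor associated macrophages, and the sources used here give no sorting gate.

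CD40 is a receptor of the tumor necrosis factor receptor family on macrophages, dendritic cells and B cells, and its ligation by T cell CD40 ligand or by an agonistic antibody activates NF-kB and licenses antigen-presenting cells to make inflammatory cytokines and to present antigen. CSF1R is the receptor for CSF1 and IL-34 and maintains the survival and differentiation of macrophages, so that its inhibition is known to deplete or reprogram them. Both receptors are carried by macrophages, so the agents can act on the same cells, and the interaction term asks whether the response to the pair differs from the responses to each agent put together.

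Library totals were 34168389 to 39818657 estimated counts in the Combination group, 26665394 to 32880763 with CSF1Ri, 26316328 to 33948213 with the CD40 agonist and 28709482 to 31698533 in Control. The 12 macrophage markers, among them Lyz2, Adgre1 and Csf1r, summed to 14040 to 34131 CPM (counts scaled to a common library size) in the Combination, 22649 to 24743 with CSF1Ri, 15409 to 19222 with the CD40 agonist and 16842 to 20497 in Control, and all 12 passed the filter on low counts. That sum follows the most abundant markers, and the mean log2 CPM over the 12 was lowest with CSF1Ri, without overlap: 7.80, 6.64 and 7.39 in the Combination, 5.79, 5.79 and 6.49 with CSF1Ri, 7.42, 7.90 and 8.04 with the CD40 agonist and 7.32, 7.24 and 7.14 in Control. With CSF1Ri 5 of the 12 (Aif1, C1qa, C1qb, C1qc and Csf1r) lay wholly below Control, and Adgre1 and Lyz2 wholly above. Combination replicate 2 and CSF1Ri replicate 3 each stood apart from their groups on the second principal component, and CD40 agonist replicate 1 on the third. The first 2 are the pair of libraries that stood apart in what follows, and results that rest on them are given with and without them. Without CD40 agonist replicate 1 the list medians for class I, class II and interferon gamma genes were 0.87, 0.72 and 1.47, against 0.92, 0.95 and 1.71 with all libraries. In bulk libraries fewer cells of a type and less RNA per cell cannot be told apart. Whether the 3 libraries of a group were collected on separate days or from separate litters is unstated in the labels, and p-values therefore cover only the variation among these pools, which may be technical.

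The interaction was computed for each gene as (Combination minus CSF1Ri) minus (CD40 agonist minus Control) on the log2 scale, so a positive value means that the Combination was higher than the single effects multiplied together would give, and a negative value that it was lower. Values after ± are standard errors (SE) of fitted log2 differences over 12 libraries. No gene passed the test among 16027 tested (0% called; edgeR quasi-likelihood test, Benjamini-Hochberg adjusted p below 0.05, smallest adjusted p = 0.141). At an unadjusted p below 0.05 there were 1305 genes (8.14%), 743 of them positive (4.64%) and 562 negative (3.51%), where 5% of the genes tested would be 801. limma voom also called 0 genes and DESeq2 called 238. Of those, 143 were positive (0.879%) and 95 negative (0.584%), and 60 had a group without a single count. Leaving out Combination replicate 2 and CSF1Ri replicate 3 together gave 66 called genes by edgeR, 40 positive and 26 negative, or 0.24% and 0.156% of the genes tested there. Of these, 24 were among DESeq2's 238 (36.4% of the 66 and 10.1% of the 238), all with the same sign. Those 2 libraries were chosen because they stood apart in these same data. Leaving them out can narrow the spread within their groups, so passing in that fit is a description and no independent call. CD40 agonist replicate 1, which also stood apart, was kept there, and leaving it out alone gave 0 calls. Interaction values below are therefore descriptions of genes that did not pass the test over all 12 libraries, unless a call is named. The comparisons of 2 groups did give calls by edgeR. There were 311 genes in Combination against CSF1Ri (1.94%) and 124 in Combination against Control (0.774%), 74 higher (0.462%) and 50 lower (0.312%). The count was 2 in CSF1Ri against Control (0.0125%). There were 0 in Combination against CD40 agonist, with 1450 at an unadjusted p below 0.05, and 0 in CD40 agonist against Control, with 1231. There, DESeq2 called 350 genes in Combination against CD40 agonist and 247 in CD40 agonist against Control, and limma voom called 7 and 5.

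The 1305 genes at an unadjusted p below 0.05 were sorted by the shape of their 4 fitted group means, with 1.5-fold as the smallest step that counts. A joint rise means that the Combination stood at least 1.5-fold above each of the other 3 groups, and 224 of the 743 positive genes (30.1%) had that shape, against 11.2% of the 8219 genes tested with an interaction above 0. In the rescue of a fall a single agent lay at least 1.5-fold below Control and the Combination at least 1.5-fold above that agent, and 313 positive genes (42.1%) had it, against 24% of those 8219. Of these 313, 281 were that far below Control with CSF1Ri, 173 with the CD40 agonist and 141 with each of them. The same split over all 1976 genes tested with that shape was not computed. Among the 562 negative genes, masking of a rise, in which a single agent lay at least 1.5-fold above Control and the Combination at least 1.5-fold below that agent, was the shape of 208 (37.0%), against 17.9% of the 7808 genes with an interaction below 0. A joint fall, the Combination at least 1.5-fold below each other group, was the shape of 146 (25.98%), against 13.7% of those 7808. Another 10 positive genes lay below Control with each agent alone (3.64% of the 8219 had that shape), and 36 negative genes lay above Control with each agent alone (6.76% of the 7808). None of these shapes was met by 196 positive and 172 negative genes, or 26.4% and 30.6%, against 61.1% of the 8219 and 61.7% of the 7808. The names describe fitted means, not tested rises or falls, and since the shapes use the same means as the interaction their shares are a description. The order of the positive shapes turned on the step. At 2-fold the joint rise held 125 genes and the rescue 273, and the joint fall 82 and masking 127. At a step of 0.32 on the log2 scale the joint rise held 364 and the rescue 328, and the joint fall 237 and masking 265.

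**Figure D1:**
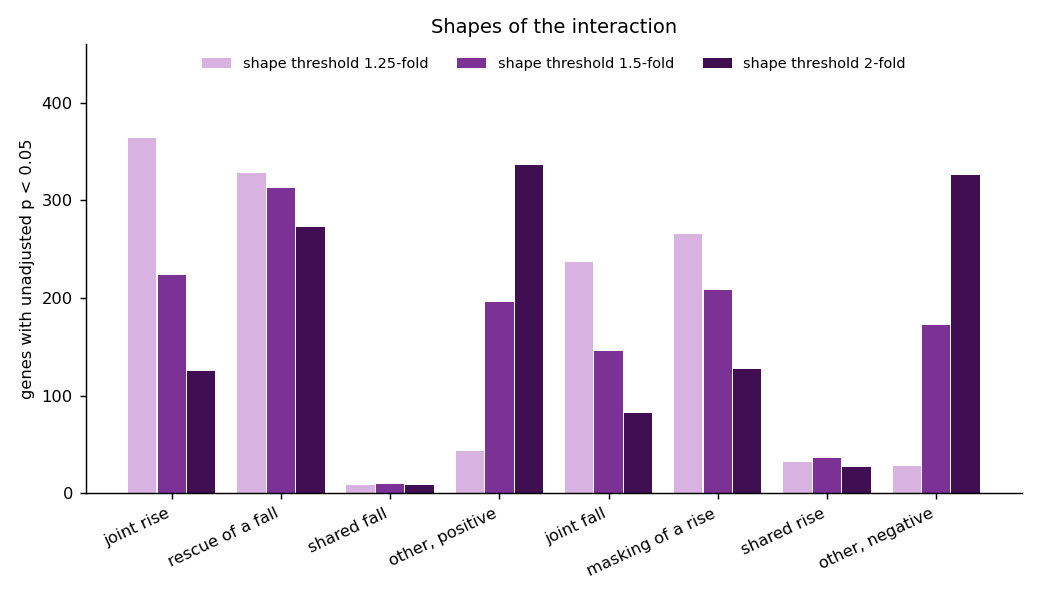
Number of genes with an unadjusted interaction p below 0.05 (vertical axis) in each shape of the 4 group means (horizontal axis), with bars for 3 sizes of step, smallest at the left, 1.5-fold in the middle and 2-fold at the right. At 1.5-fold the positive shapes hold 313 genes (rescue of a fall) and 224 (joint rise), and the negative shapes 208 (masking of a rise) and 146 (joint fall).

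The interaction can also be read as the antibody's effect on inhibitor chow set beside its effect on normal chow, 2 differences that share no library. Across the 15404 genes with counts in every group these effects correlated at Pearson's 0.21 and Spearman's 0.27, a description across genes, which are not independent replicates. Of the 199 genes that rose in Combination against CSF1Ri (1.24% of those tested), 163 (81.9%) had an antibody effect of the same sign on normal chow, where 62.3% of all genes above 0 on inhibitor chow did. Their median log2 effect was 1.23 on inhibitor chow and 0.28 on normal chow, where the first median is raised by the choice of genes and the second is not. Of the 112 that fell (0.699%), 95 (84.8%) had the same sign, where 61.4% of all genes below 0 did, with medians of -1.04 on inhibitor chow and -0.33 on normal chow. For all genes the medians were 0.02 and 0.01.

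**Figure D2:**
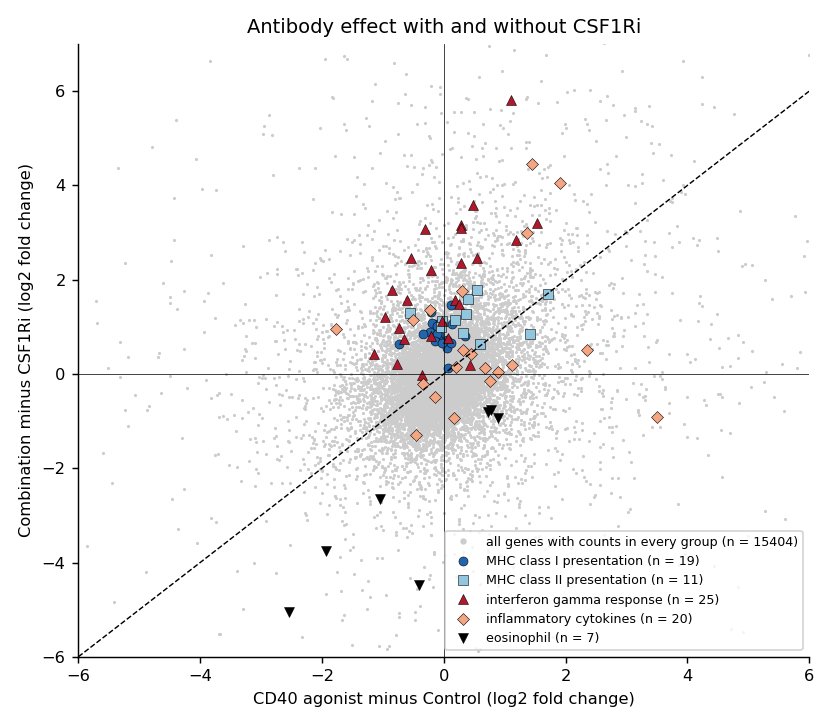
Antibody effect on inhibitor chow (Combination minus CSF1Ri, log2, vertical axis) against its effect on normal chow (CD40 agonist minus Control, log2, horizontal axis), with 1 grey point for each of 15404 genes and coloured points for 5 gene lists. Genes on the dashed line have an interaction of 0, class I, class II and interferon gamma genes lie mostly above it and eosinophil genes below it, and 46 genes, none from these lists, fall outside the axes.

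Genes of MHC class I presentation, which cut proteins in the immunoproteasome, carry the peptides into the endoplasmic reticulum and display them to CD8 T cells, had a positive interaction in 19 of 19 members, with a median of 0.92 on the log2 scale against 0.02 over all genes tested. At an unadjusted p below 0.05 there were 16 positive members and 0 negative, against 4.64% and 3.51% of all genes. In 13 of the 19, all 3 Combination libraries lay above all 9 others, a separation seen in 2.3% of genes tested (1.78% lay below all 9). Psme2 (ENSMUSG00000079197, chr14:55587441-55591113 in GENCODE M21 on GRCm38), a subunit of the PA28 proteasome activator, had 983, 1116 and 757 CPM in the Combination libraries, 306, 303 and 543 CPM with CSF1Ri, 447, 560.4 and 545 CPM with the CD40 agonist and 605, 551 and 631 CPM in Control. The Combination was the highest group without overlap and CSF1Ri replicates 1 and 2 the lowest libraries. The single effects multiplied together would put the Combination at 334 CPM. Its interaction was 1.51 ± 0.32 (SE; unadjusted p = 0.000574, adjusted p = 0.255), and Psme2 rose in Combination against CSF1Ri (log2 fold change 1.31 ± 0.23, edgeR adjusted p = 0.022). Without Combination replicate 2 and CSF1Ri replicate 3 the interaction of Psme2 was 1.72 and passed (edgeR adjusted p = 0.0315).

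The partner subunit Psme1 had 493, 501 and 407 CPM in the Combination libraries, 217, 225 and 345 CPM with CSF1Ri, 295, 326 and 313 CPM with the CD40 agonist and 319, 324 and 343 CPM in Control, with the Combination again highest without overlap. The immunoproteasome subunits Psmb8 and Psmb9 had interactions of 0.97 ± 0.29 and 1.14 ± 0.32 (SE), and Psma5 (ENSMUSG00000068749, chr3:108256926-108279974), a subunit of the core proteasome, 0.93 ± 0.17. Psma5 rose in Combination both against CSF1Ri (adjusted p = 0.0066) and against Control (adjusted p = 0.0196), by edgeR. At the display end, the heavy chain H2-K1 had 1837, 2086 and 1560.0 CPM in the Combination libraries, 1107, 1158 and 1206 CPM with CSF1Ri, 1182, 1334 and 1263 CPM with the CD40 agonist and 1124, 1125 and 1214 CPM in Control, with CSF1Ri overlapping Control and the Combination above both. H2-K1 rose in Combination against Control (log2 fold change 0.66 ± 0.11, edgeR adjusted p = 0.0258), and its light chain B2m, with an interaction of 0.50 ± 0.16, rose in Combination against CSF1Ri (edgeR adjusted p = 0.038). A second heavy chain, H2-D1, did not follow: its interaction was 0.06 ± 0.16 and its Combination range overlapped CSF1Ri. The class I heavy chain genes are near copies of each other, and the division of estimated counts among them is uncertain. Leaving out Combination replicate 2 lowered the list's median to 0.77 and left 15 members at an unadjusted p below 0.05, where 5.29% of all genes were positive and 4.56% negative.

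The receptor itself belonged to the joint rise. Cd40 (ENSMUSG00000017652, chr2:165055627-165072948) had 303, 189 and 239 CPM in the Combination libraries, 62, 60.4 and 109 CPM with CSF1Ri, 99.1, 129 and 121 CPM with the CD40 agonist and 140.4, 98.1 and 151 CPM in Control. All Combination libraries lay above all 9 others, and the CD40 agonist alone overlapped Control. Its interaction was 1.82 ± 0.37 (SE; unadjusted p = 0.000487, adjusted p = 0.247), and Cd40 rose in Combination against CSF1Ri (edgeR adjusted p = 0.0181) but did not pass against Control (adjusted p = 0.153). Without the pair of libraries that stood apart the interaction was 2.31 (edgeR adjusted p = 0.0315). Nfkb2 (ENSMUSG00000025225, chr19:46304320-46312385), which encodes the p100 precursor that CD40 signalling processes in the non-canonical NF-kB pathway, was the positive protein-coding gene with the second smallest p: it had 75.2, 78 and 83.2 CPM in the Combination libraries, 47.6, 49.2 and 50.2 CPM with CSF1Ri, 47.5, 41.7 and 49.2 CPM with the CD40 agonist and 57, 64.1 and 60.7 CPM in Control. Both single agents lay below Control and the Combination above it, without overlap, by less than 1.5-fold over Control, and the interaction was 1.08 ± 0.18 (SE; unadjusted p = 8.18e-05, adjusted p = 0.174). Over the list of 26 NF-kB subunits and feedback genes the interaction was positive in 21, with a median of 0.42, and 4 positive and 1 negative members reached an unadjusted p below 0.05, against 4.64% and 3.51% of all genes. The list's median was 0.25 without Combination replicate 2 and 0.24 without CSF1Ri replicate 3. Without both libraries it was 0.14, with 17 members positive.

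Tnf (ENSMUSG00000024401, chr17:35199381-35202007), the inflammatory cytokine made by activated macrophages, had 142, 266 and 96.3 CPM in the Combination libraries, 11.1, 12.5 and 7 CPM with CSF1Ri, 115, 76.2 and 58.8 CPM with the CD40 agonist and 24.7, 20.5 and 21.7 CPM in Control. CSF1Ri alone was the lowest group, the CD40 agonist alone lay above Control, and the Combination overlapped the CD40 agonist in 1 library. The product of the single effects would put the Combination at 38.2 CPM. The antibody effect on Tnf was 4.04 ± 0.41 on inhibitor chow and 1.91 ± 0.38 on normal chow (log2, SE), an interaction of 2.14 ± 0.52 (SE; unadjusted p = 0.00173, adjusted p = 0.334), and Tnf rose in Combination against both CSF1Ri and Control (edgeR adjusted p = 0.0066 and 0.0156). Without Combination replicate 2, its highest library, the interaction was 1.65. Il12b, the p40 chain of IL-12 and IL-23, had 224, 20.4 and 177 CPM in the Combination libraries, 2.07, 9.03 and 8.13 CPM with CSF1Ri, 14.3, 38.6 and 48.2 CPM with the CD40 agonist and 17.8, 9.27 and 10.1 CPM in Control, with Combination replicate 2 inside the range of the CD40 agonist. Il12b rose in Combination against CSF1Ri (edgeR adjusted p = 0.0337), and its interaction was 3.01 ± 1.10. Il27, Tnf, Il12b and Tnfsf9 were the 4 of 22 inflammatory cytokines with a positive interaction at an unadjusted p below 0.05, and no member was negative at that level. Without the pair of libraries that stood apart 4 members were positive and 5 negative (6.91% and 5.65% of all genes), and the median was -0.23.

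**Figure D3:**
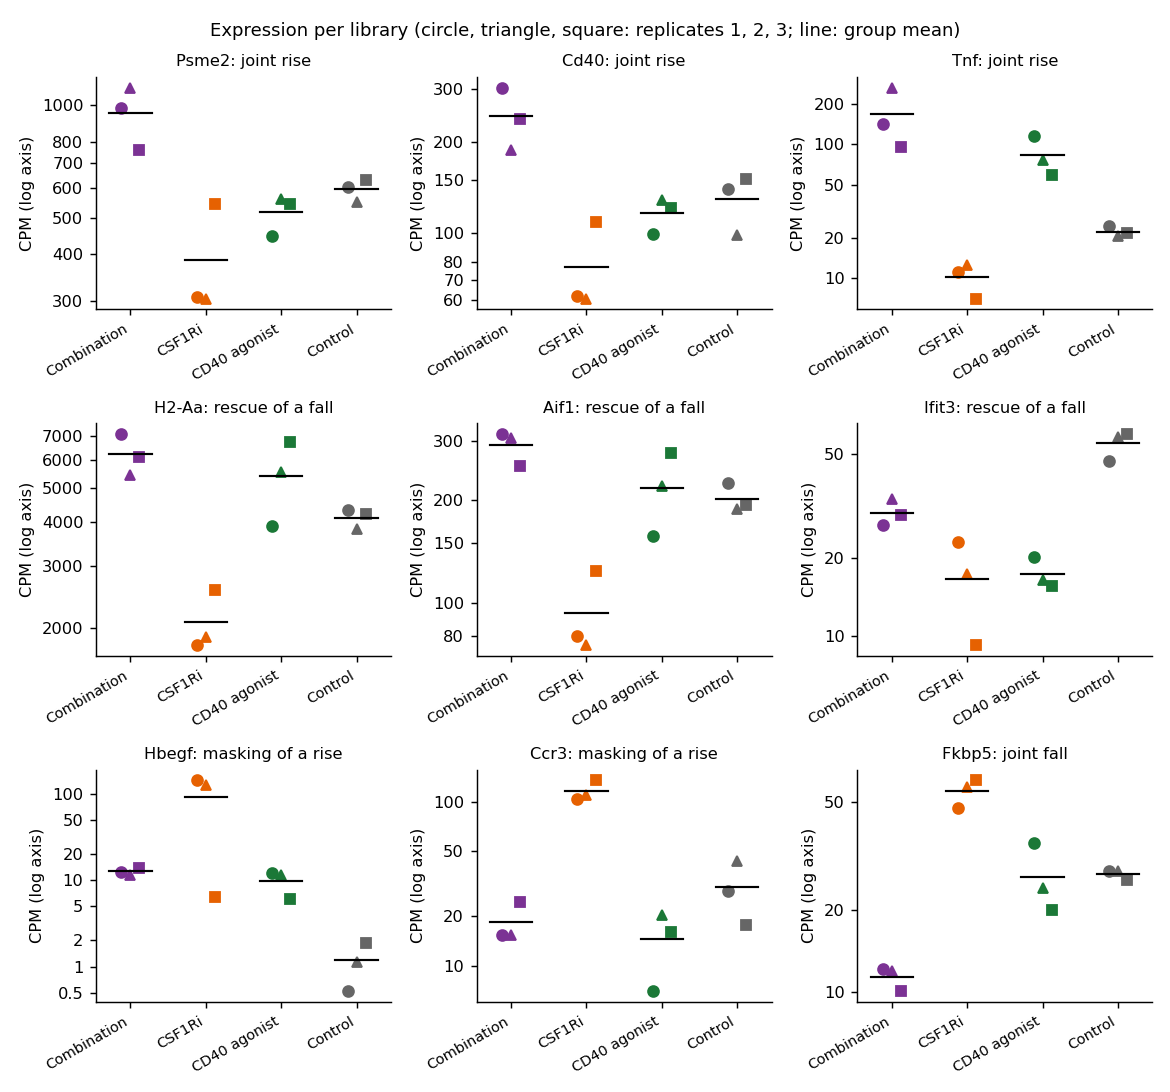
Expression of 9 genes in every library (vertical axis, CPM on a log axis) by group (horizontal axis), with replicates 1, 2 and 3 as circle, triangle and square and the group mean as a line. Psme2 and Cd40 are highest in all 3 Combination libraries, H2-Aa and Aif1 are lowest with CSF1Ri and stand at or above Control in the Combination, and Hbegf with CSF1Ri is high in replicates 1 and 2 and low in replicate 3.

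Other cytokines and early response genes that were high in the Combination had interactions on both sides of 0. The whole cytokine list had 11 members above 0 and 11 below, with a median of 0.04, although it stood 1.49 above Control in the Combination by its median. Tnfaip3, which encodes the NF-kB inhibitor A20, had 569.7, 734 and 439 CPM in the Combination libraries, 224, 206 and 93.2 CPM with CSF1Ri, 251, 228 and 254 CPM with the CD40 agonist and 95.7, 64.6 and 118 CPM in Control. Each agent alone lay above Control in most libraries and the Combination above both, and the interaction was 0.34 ± 0.45 (unadjusted p = 0.465), while Tnfaip3 rose in Combination against Control (log2 fold change 2.65 ± 0.34, edgeR adjusted p = 0.0145). Its interaction turned to -0.17 without the pair of libraries that stood apart. The chemokine Ccl3 and the cytokines Il6 and Osm rose in Combination against Control by log2 fold changes of 1.94 ± 0.33, 1.95 ± 0.32 and 2.43 ± 0.40 (edgeR adjusted p = 0.0304, 0.0244 and 0.0257), and their interactions were -0.31 ± 0.45, -0.55 ± 0.43 and -0.93 ± 0.54. The stress factor Atf3 and the NF-kB inhibitor Nfkbia had interactions of 0.38 ± 0.34 and 0.23 ± 0.39. Junb, a subunit of AP-1, had 264, 222 and 197 CPM in the Combination libraries, 209.6, 170.0 and 154 CPM with CSF1Ri, 219.8, 193 and 172 CPM with the CD40 agonist and 85.9, 102 and 90.7 CPM in Control. Each agent alone lay above Control without overlap and the Combination overlapped both, an interaction of -0.71 ± 0.23 (SE; unadjusted p = 0.009, adjusted p = 0.451). The 26 immediate early genes had 12 members above 0 and 14 below. Of the inhibitor's own axis, Csf1r had an interaction of 0.11 ± 0.30 and its ligand Csf1 -0.21 ± 0.43, and both signs depended on the libraries used. Csf1 had 65.8, 62 and 97 CPM in the Combination libraries, 90.4, 132 and 71.7 CPM with CSF1Ri, 33.5, 27.6 and 20.2 CPM with the CD40 agonist and 23.4, 41.3 and 27.4 CPM in Control, high on inhibitor chow with or without the antibody. These intervals are wide, and a small value with such an SE does not show that the effects multiplied exactly.

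With all 12 libraries the interferon lists had the largest medians of the 23 pathway lists. That order rested on Combination replicate 2: without it the cell cycle list stood at 1.05, interferon gamma at 1.02, class II at 0.93 and type I at 0.84. Without the pair of libraries that stood apart type I (0.63) lay below cell cycle (1.19), class II (1.11) and class I (0.87). Interferon gamma, made by T and NK cells, and the type I interferons act through STAT proteins and IRF factors on sites that include the interferon-stimulated response element, and raise guanylate-binding proteins, antigen presentation and antiviral genes. Of 25 interferon gamma genes 24 had a positive interaction, with a median of 1.71, and 16 were positive and 0 negative at an unadjusted p below 0.05 (4.64% and 3.51% of all genes). Of 27 tested type I interferon genes (28 listed) 24 were positive, with a median of 1.32, and 14 were positive and 0 negative at that level. In the Combination, replicate 2 carried much of the level: the interferon gamma genes summed to 2822, 10827 and 3689.7 CPM in the Combination libraries, 1972, 1803 and 2416 CPM with CSF1Ri, 1447, 1843 and 2105 CPM with the CD40 agonist and 2211, 1945 and 2276 CPM in Control. Replicates 1 and 3 of the Combination still lay above the other 9 libraries. Without Combination replicate 2 the median of the interferon gamma list was 1.02 with 11 members at an unadjusted p below 0.05, and that of the type I list 0.84 with 7. Without CSF1Ri replicate 3 as well, the medians were 1.42 and 0.63.

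The promoters printed here belong to 4 interferon-stimulated genes described next, picked because each holds the response element. They come from RefSeq (GRCm38.p6), 250 bases before to 50 after the start, written 5′ to 3′ on the gene's strand, with capitals marking the response element on either strand, searched as GAAA, any 2 bases and GAAA, and overlapping matches merged.
Cxcl10 promoter, chr5:92348840-92349139, minus strand: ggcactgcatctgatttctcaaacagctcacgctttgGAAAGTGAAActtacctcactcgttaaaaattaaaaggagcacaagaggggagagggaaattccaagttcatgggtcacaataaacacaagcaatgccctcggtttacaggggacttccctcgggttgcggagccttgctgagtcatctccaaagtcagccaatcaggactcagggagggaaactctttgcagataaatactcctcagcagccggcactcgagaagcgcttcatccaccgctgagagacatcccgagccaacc
Gbp3 promoter, chr3:142559794-142560093, plus strand: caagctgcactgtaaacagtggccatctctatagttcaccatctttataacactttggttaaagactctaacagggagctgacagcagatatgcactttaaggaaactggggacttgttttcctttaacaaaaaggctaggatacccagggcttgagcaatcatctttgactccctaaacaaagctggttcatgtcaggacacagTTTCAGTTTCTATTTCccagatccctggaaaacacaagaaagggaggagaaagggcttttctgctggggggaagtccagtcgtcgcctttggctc
Ifit3 promoter, chr19:34583279-34583578, plus strand: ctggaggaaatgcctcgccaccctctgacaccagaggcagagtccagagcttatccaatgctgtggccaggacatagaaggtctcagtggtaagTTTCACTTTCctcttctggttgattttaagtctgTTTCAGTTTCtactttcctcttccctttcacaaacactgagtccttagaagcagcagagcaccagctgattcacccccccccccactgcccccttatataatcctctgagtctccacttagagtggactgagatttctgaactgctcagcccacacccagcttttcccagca
Phf11b promoter, chr14:59341281-59341580, minus strand: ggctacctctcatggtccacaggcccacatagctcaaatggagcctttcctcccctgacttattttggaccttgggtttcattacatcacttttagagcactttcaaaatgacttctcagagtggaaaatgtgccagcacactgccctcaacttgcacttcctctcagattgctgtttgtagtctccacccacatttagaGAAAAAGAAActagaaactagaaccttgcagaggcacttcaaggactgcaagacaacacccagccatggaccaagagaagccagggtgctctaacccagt
The table holds a second Gbp3 promoter, chr3:142560106-142560405, with no match. That motif is in 3.44% of all 32851 promoters of the table. It is in 12 of the 21 promoters found for 18 interferon gamma genes (57.1%), in 11 of 25 for 21 type I genes (44.0%), in 5 of 19 for 17 class I genes (26.3%) and in 0 of 9 for class II and 0 of 17 for inflammatory cytokine genes. A match describes these letters and is no evidence of binding.

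Cxcl10 (ENSMUSG00000034855, chr5:92346638-92348889), a chemokine that draws activated T cells, had 37.4, 172 and 44.8 CPM in the Combination libraries, 12.4, 12.7 and 5.22 CPM with CSF1Ri, 25.9, 11.4 and 18.4 CPM with the CD40 agonist and 23.9, 25.5 and 19.9 CPM in Control. All Combination libraries lay above all 9 others, replicate 2 far above its own group, and CSF1Ri alone was below Control. Its interaction was 3.39 ± 0.81 (SE; unadjusted p = 0.00153, adjusted p = 0.319), and 2.34 without Combination replicate 2. Cxcl10 rose in Combination against CSF1Ri (edgeR adjusted p = 0.0334). Gbp3 (ENSMUSG00000028268, chr3:142560026-142573209), a guanylate-binding protein of cell-autonomous defence, had 233, 633 and 253 CPM in the Combination libraries, 111, 89.3 and 176 CPM with CSF1Ri, 84.9, 142 and 119 CPM with the CD40 agonist and 179, 181 and 165 CPM in Control. The CD40 agonist alone lay wholly below Control and the Combination wholly above CSF1Ri, as in 0.256% of genes tested (0.268% had the reverse), and the interaction was 2.17 ± 0.53 (SE; unadjusted p = 0.00185, adjusted p = 0.335), or 1.55 without Combination replicate 2. Phf11b, an interferon-inducible PHD finger gene, had 137, 141 and 104 CPM in the Combination libraries, 45.1, 37.2 and 59.2 CPM with CSF1Ri, 58.7, 71.7 and 87.1 CPM with the CD40 agonist and 83.7, 86.5 and 92.4 CPM in Control, with the Combination highest without overlap and CSF1Ri lowest by its mean, and an interaction of 1.70 ± 0.29 (SE; unadjusted p = 9.75e-05, adjusted p = 0.174). Phf11b rose in Combination against CSF1Ri (edgeR adjusted p = 0.0122). The Gbp genes and the Tgtp pair are families of near copies and their split of counts is uncertain.

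Some type I genes had another shape. Ifit3 (ENSMUSG00000074896, chr19:34583531-34588731), an antiviral RNA-binding protein, had 26.6, 33.5 and 29.1 CPM in the Combination libraries, 23.1, 17.4 and 9.24 CPM with CSF1Ri, 20.1, 16.4 and 15.6 CPM with the CD40 agonist and 46.8, 58.1 and 59.6 CPM in Control. Control was the highest group without overlap, each agent alone lay far below it, and the Combination lay between, whereas the product of the single effects would put it at 5.24 CPM. Its interaction was 2.50 ± 0.42 (SE; unadjusted p = 8.86e-05, adjusted p = 0.174), and 2.12 without the pair of libraries that stood apart (edgeR adjusted p = 0.0367). Ifit2 had 28.6, 129.7 and 43.9 CPM in the Combination libraries, 18.3, 5.28 and 4.26 CPM with CSF1Ri, 13.2, 17.6 and 37.2 CPM with the CD40 agonist and 59, 46.3 and 49.5 CPM in Control, with an interaction of 4.04 ± 0.95, or 3.15 without Combination replicate 2. The type I list lay -0.80 from Control by its median with the CD40 agonist, -0.24 with CSF1Ri and 0.17 in the Combination. Its mean log2 CPM was 4.70, 6.33 and 5.27 in the Combination libraries and 5.52, 5.38 and 5.48 in Control. Only Combination replicate 2 thus lay above Control, and the other Combination libraries lay below it. Of the 25 interferon gamma genes 8 rose in Combination against CSF1Ri, where 1.24% of all genes rose.

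**Figure D4:**
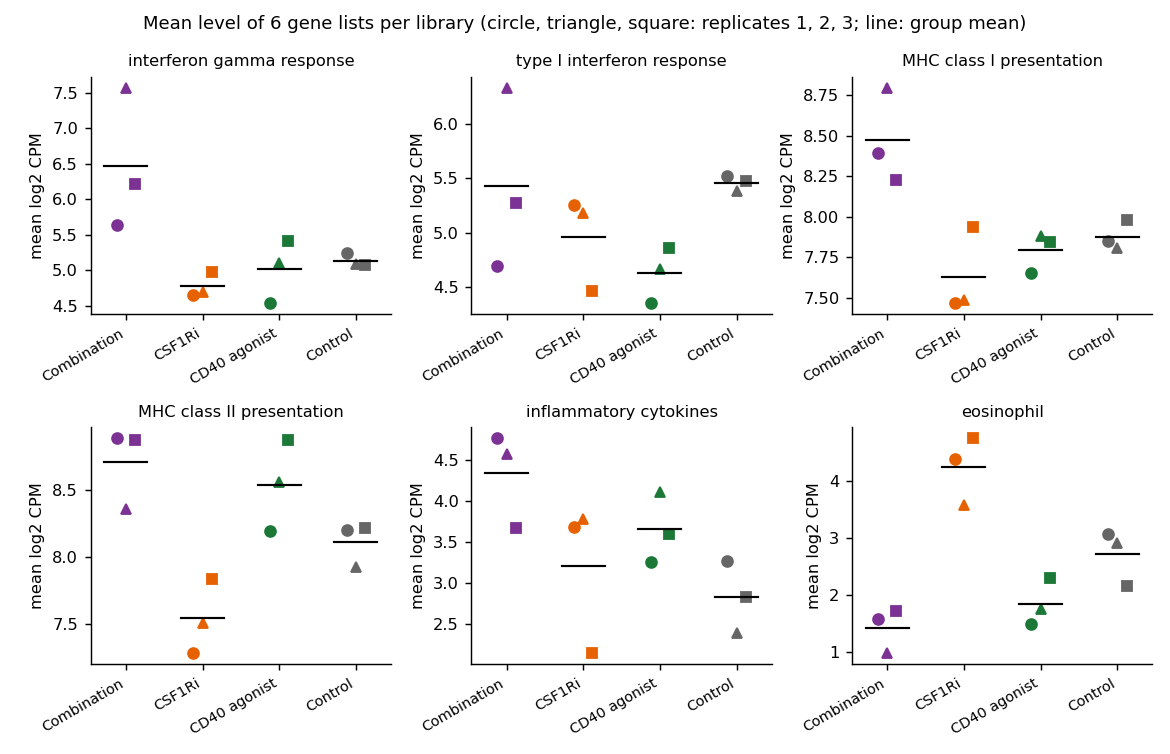
Mean log2 CPM over the tested genes of 6 lists (vertical axes) in every library by group (horizontal axis), with replicates 1, 2 and 3 as circle, triangle and square and the group mean as a line. Class II genes are lowest with CSF1Ri, eosinophil genes are highest with CSF1Ri, and Combination replicate 2 is the highest library for both interferon lists.

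Interferon gamma itself did not show the pattern of its targets. Ifng had 14.6, 16 and 12.4 CPM in the Combination libraries, 3.09, 3.15 and 7.37 CPM with CSF1Ri, 17.6, 19.5 and 11.3 CPM with the CD40 agonist and 4.47, 2.85 and 3.05 CPM in Control, high in both groups that received the antibody, and its interaction was -0.57 ± 0.57. The receptor chain Ifngr1 had 733, 749 and 712 CPM in the Combination libraries, 1099, 1099.9 and 1076 CPM with CSF1Ri, 1038, 1126 and 1082 CPM with the CD40 agonist and 1104, 1198 and 1039.7 CPM in Control. The Combination was lowest without overlap and the other 3 groups coincided, with an interaction of -0.54 ± 0.12, and Ifngr1 fell in Combination against CSF1Ri (log2 fold change -0.58 ± 0.09, edgeR adjusted p = 0.0129) and against Control (adjusted p = 0.0186). Ifng and Ifngr1 were chosen after their values were seen. So were Psme1, Psmb8, Psmb9, H2-K1, B2m, H2-D1, Il12b, Tnfsf9, Ccl3, Il6, Osm, Atf3 and Nfkbia above, and so were Ciita, Cd74, H2-Oa, H2-DMb2, Fscn1, Clec7a, Ccr3, Il5ra and Prg2 below. The 14 genes of NK and cytotoxic cells, a source of Ifng, summed to 2566, 2532 and 2491 CPM in the Combination libraries, 849, 916 and 1424 CPM with CSF1Ri, 2689, 3316 and 1709.5 CPM with the CD40 agonist and 1469, 1397 and 1826 CPM in Control, with 9 members above 0 and 5 below and no member at an unadjusted p below 0.05. Their part in the interferon results was not tested.

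MHC class II presentation, by which macrophages, dendritic cells and B cells show peptides to CD4 T cells, had the shape of a rescue. Of 11 genes 9 had a positive interaction, with a median of 0.95, and 7 were positive and 0 negative at an unadjusted p below 0.05 (4.64% and 3.51% of all genes), 6 of these as rescues. H2-Aa (ENSMUSG00000036594, chr17:34282744-34287823), the I-A alpha chain, had 7114, 5423 and 6119 CPM in the Combination libraries, 1785, 1882 and 2556 CPM with CSF1Ri, 3902, 5526 and 6738 CPM with the CD40 agonist and 4312, 3811 and 4205 CPM in Control. CSF1Ri alone was the lowest group without overlap, and the Combination overlapped the CD40 agonist and lay above Control. Its interaction was 1.19 ± 0.28 (SE; unadjusted p = 0.00124, adjusted p = 0.305), and H2-Aa rose in Combination against CSF1Ri (log2 fold change 1.58 ± 0.20, edgeR adjusted p = 0.00911). Ciita, the transactivator that controls class II genes, had 90, 124 and 107 CPM in the Combination libraries, 49.1, 43.9 and 55 CPM with CSF1Ri, 63.3, 72.5 and 107 CPM with the CD40 agonist and 85.2, 80.6 and 81.1 CPM in Control, with the same lowest group and an interaction of 1.14 ± 0.28. In all 7 members rose in Combination against CSF1Ri, where 1.24% of all genes did. Cd74, the invariant chain, was among them and had 21133, 22270 and 21635 CPM in the Combination libraries, 8181, 8849 and 12576 CPM with CSF1Ri, 13800, 20394 and 27397 CPM with the CD40 agonist and 18936, 16258 and 18817 CPM in Control. The accessory genes H2-Oa and H2-DMb2, the 2 members below 0, had interactions of -0.56 ± 0.49 and -0.02 ± 0.70.

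Markers of dendritic cells, which carry much class II, varied across the same libraries. The 13 dendritic cell markers, all detected in every group, summed to 1637, 178 and 1629 CPM in the Combination libraries, 549, 662 and 1344 CPM with CSF1Ri, 1028, 1059 and 1216 CPM with the CD40 agonist and 1006, 1058 and 1402 CPM in Control. Combination replicate 2 was far below its own group there, and CSF1Ri replicates 1 and 2 were below replicate 3. By their sum the class II genes were nearly level in the Combination libraries, at 37938, 36119 and 37103 CPM. They summed to 12935, 13912 and 19367 CPM with CSF1Ri, 23683, 34398 and 45192 CPM with the CD40 agonist and 29807, 26051 and 29555 CPM in Control. By mean log2 CPM Combination replicate 2 was the lowest of its group for class II as well, at 8.36 against 8.89 and 8.87. Without both libraries the class II median was 1.11 with 8 members positive at an unadjusted p below 0.05, where 6.91% of all genes were positive and 5.65% negative. In the same fit the dendritic cell markers Ccr7 and Fscn1 passed the interaction test. The 10 tested B cell markers summed to 113 to 214 CPM in the Combination, 162 to 214 with CSF1Ri, 307 to 396 with the CD40 agonist and 289.6 to 334 in Control. The macrophage markers given above were also lowest with CSF1Ri by their mean log2 CPM. What part any of these cell types had in the class II result was not tested.

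Rescues outside antigen presentation included macrophage and adhesion genes. Aif1 (ENSMUSG00000024397, chr17:35170991-35176068), which encodes the actin-binding macrophage protein IBA1, had 314, 306 and 253 CPM in the Combination libraries, 80.1, 75.2 and 124 CPM with CSF1Ri, 157, 220.3 and 275 CPM with the CD40 agonist and 225, 189 and 194 CPM in Control. CSF1Ri was lowest without overlap and the Combination overlapped the CD40 agonist. Its interaction was 1.54 ± 0.32 (SE; unadjusted p = 0.000608, adjusted p = 0.263), and Aif1 rose in Combination against CSF1Ri (edgeR adjusted p = 0.0122). F11r, the junctional adhesion molecule JAM-A, had 121, 124 and 134 CPM in the Combination libraries, 20.8, 29.5 and 35 CPM with CSF1Ri, 71.2, 97.9 and 123.2 CPM with the CD40 agonist and 60.5, 74.3 and 98 CPM in Control, with CSF1Ri lowest without overlap, the Combination overlapping the CD40 agonist, and an interaction of 1.82 ± 0.35 (SE; unadjusted p = 0.000304, adjusted p = 0.23). Mpzl2, an adhesion protein, and Haus3, a subunit of the augmin complex, were also rescues, with 0.577, 0.562 and 0.7 CPM and 9, 9.22 and 6.41 CPM under CSF1Ri, below all other libraries. Their interactions were 5.33 ± 0.98 and 1.96 ± 0.38. Dnase1l3, a secreted DNase of myeloid cells, had 41.1, 79.3 and 63.2 CPM in the Combination libraries, 2, 3.37 and 5.36 CPM with CSF1Ri, 22, 23 and 61.7 CPM with the CD40 agonist and 18.1, 29.7 and 32 CPM in Control. It was lowest with CSF1Ri too, but by its means it was a joint rise, with 1 CD40 agonist library inside the Combination range, and its interaction was 3.67 ± 0.68 (SE; unadjusted p = 0.000222, adjusted p = 0.222). F11r and Dnase1l3 both rose in Combination against CSF1Ri (edgeR adjusted p = 0.00837 and 0.00911). Aif1 is itself 1 of the 12 macrophage markers. Of the others, C1qb had 198, 8.64 and 93.4 CPM in the Combination libraries, 4.82, 3.37 and 14.5 CPM with CSF1Ri, 109, 169.8 and 299 CPM with the CD40 agonist and 61.9, 51.9 and 69.7 CPM in Control, with an interaction of 2.06 ± 1.19, and was chosen after its values were seen.

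In 191 of the 208 genes with masking of a rise, CSF1Ri alone lay at least 1.5-fold above Control. The shape sets the Combination below the higher single agent, and the Combination could still lie above Control. The same split over all 1398 genes of that shape was not computed. Kdm6b, the H3K27 demethylase JMJD3, had 178, 159 and 158 CPM in the Combination libraries, 381, 449 and 256 CPM with CSF1Ri, 247, 191 and 212 CPM with the CD40 agonist and 215, 192 and 173 CPM in Control. All 3 CSF1Ri libraries lay above the other 9, and the Combination overlapped the lower end of Control. Its interaction was -1.30 ± 0.27 (SE; unadjusted p = 0.000503, adjusted p = 0.247), and Kdm6b fell in Combination against CSF1Ri (edgeR adjusted p = 0.0198). Atp13a3, a polyamine transporter of the P5B ATPases, had 46.7, 39.9 and 49.8 CPM in the Combination libraries, 93.6, 95.1 and 94.8 CPM with CSF1Ri, 59.3, 73.7 and 71.6 CPM with the CD40 agonist and 66.1, 64.4 and 50.9 CPM in Control, with CSF1Ri highest and the Combination lowest without overlap, and an interaction of -1.23 ± 0.21 (SE; unadjusted p = 0.000123, adjusted p = 0.18). Alox5, the first enzyme of leukotriene synthesis, had 36.1, 40.8 and 69.3 CPM in the Combination libraries, 99.8, 66.8 and 55.1 CPM with CSF1Ri, 64.9, 71.7 and 83.5 CPM with the CD40 agonist and 29.7, 30.5 and 32.1 CPM in Control. Either agent alone put Alox5 above Control without overlap, the Combination lay above Control too but below their product (176 CPM), and the interaction was -1.85 ± 0.38 (SE; unadjusted p = 0.000523, adjusted p = 0.247). Pbld1 was high with CSF1Ri alone, at 6.86, 6.63 and 5.89 CPM against 1.52, 1.2 and 0.871 CPM in Control, and Sept3 with the CD40 agonist, at 26.5, 25.6 and 39.1 CPM against 0.82, 2.72 and 3.48 CPM in Control. Their interactions were -3.25 ± 0.67 and -4.32 ± 0.81.

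For some masked genes the CSF1Ri group was split. Hbegf (ENSMUSG00000024486, chr18:36504927-36515805), an EGF receptor ligand of activated macrophages, had 12.5, 11.4 and 13.8 CPM in the Combination libraries, 143, 126 and 6.3 CPM with CSF1Ri, 12.1, 11.3 and 5.99 CPM with the CD40 agonist and 0.517, 1.14 and 1.87 CPM in Control. CSF1Ri replicates 1 and 2 were the highest of all, CSF1Ri replicate 3 lay below the Combination, and Control was lowest. The interaction was -5.92 ± 1.22 (SE; unadjusted p = 0.000504, adjusted p = 0.247), and -6.41 without the pair of libraries that stood apart (edgeR adjusted p = 0.0315). The monocyte chemoattractant Ccl7 had 153, 134 and 15.7 CPM with CSF1Ri and an interaction of -3.09 ± 0.94, the matrix protein Thbs1 681, 579 and 90.3 CPM and -2.53 ± 0.80, and the beta-glucan receptor Clec7a 1546, 1294 and 347 CPM and -1.52 ± 0.58. By its means Thbs1 was highest with the CD40 agonist, at 597 CPM against 450 with CSF1Ri, 218 in Control and 214 in the Combination. Without the pair of libraries that stood apart the interactions of Ccl7 and Thbs1 were -3.25 and -3.17, and both passed (edgeR adjusted p = 0.0315 and 0.0341). In 102 of the 191 genes above Control with CSF1Ri, replicate 3 lay below both other CSF1Ri libraries (53.4%), as it did in 42.7% of all 2407 genes at least 1.5-fold above Control with CSF1Ri. It lay more than 2-fold below both in 39 of the 191 (20.4%) and in 21.1% of those 2407. A split of that size was therefore no more frequent among the masked genes. The 16 neutrophil markers summed to 1104, 2013 and 2944 CPM in the Combination libraries, 4464, 3431 and 902 CPM with CSF1Ri, 853, 747 and 742 CPM with the CD40 agonist and 1710.2, 815 and 694 CPM in Control, and the 14 tested mast cell and basophil markers to 1004, 834 and 1241 CPM in the Combination libraries, 1792, 1798 and 631 CPM with CSF1Ri, 682, 555 and 382 CPM with the CD40 agonist and 326, 372 and 351 CPM in Control, both with CSF1Ri replicates 1 and 2 high and replicate 3 low. The neutrophil marker Ly6g had no counts in the CD40 agonist libraries and at most 3.22 CPM elsewhere, Elane none with CSF1Ri or in Control, and the mast cell protease Mcpt4 none in Control. The part of these cells in the masked genes was not tested.

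By their sum eosinophil genes were highest in the 3 CSF1Ri libraries, though not every member was. Of the 8 tested, 6 lay wholly above Control with CSF1Ri, as did 1159 of all 16027 genes. With the CD40 agonist 2 lay wholly above Control and 2 wholly below, against 1337 and 1400 of all genes. Of 9 listed markers Epx did not pass the filter on low counts, and the interaction of the granule gene Prg2 could not be estimated, since it had no counts in the Combination and CD40 agonist libraries. The other 7 had a negative interaction, with a median of -1.83, and 6 of them reached an unadjusted p below 0.05 (3.51% of all genes). Ccr3, the eotaxin receptor, had 15.4, 15.4 and 24.5 CPM in the Combination libraries, 103, 111 and 136 CPM with CSF1Ri, 6.97, 20.5 and 16 CPM with the CD40 agonist and 28.7, 43.6 and 17.8 CPM in Control. CSF1Ri was highest without overlap, and Ccr3 fell in Combination against CSF1Ri (log2 fold change -2.66 ± 0.42, edgeR adjusted p = 0.0178), with an interaction of -1.61 ± 0.57. Ear6 (ENSMUSG00000062148, chr14:51853699-51854643), an eosinophil-associated ribonuclease, had 0.98, 0.813 and 0.689 CPM in the Combination libraries, 11, 9.89 and 35 CPM with CSF1Ri, 1.88, 1.57 and 2.06 CPM with the CD40 agonist and 3.13, 2.03 and 2.14 CPM in Control, highest with CSF1Ri and lowest in the Combination without overlap, with an interaction of -4.08 ± 0.75 (SE; unadjusted p = 0.000194, adjusted p = 0.217). Ear6 and the IL-5 receptor chain Il5ra were the other members that fell in Combination against CSF1Ri, so 3 of 7 did so against 0.699% of all genes. The Ear genes are near copies of each other. The 8 tested genes, Prg2 included, summed to 107, 82.3 and 151 CPM in the Combination libraries, 333, 312 and 378 CPM with CSF1Ri, 159, 143 and 207 CPM with the CD40 agonist and 125, 164 and 84.6 CPM in Control.

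The joint fall was led by Fkbp5 (ENSMUSG00000024222, chr17:28399094-28517527), a co-chaperone of the glucocorticoid receptor and itself a known glucocorticoid target. It had 12.1, 12 and 10.1 CPM in the Combination libraries, 47.4, 56.8 and 60 CPM with CSF1Ri, 35.3, 24.2 and 19.9 CPM with the CD40 agonist and 27.9, 27.8 and 25.9 CPM in Control. The Combination was lowest and CSF1Ri highest, each without overlap, and the CD40 agonist range held all of Control. The single effects multiplied together would put the Combination at 53.3 CPM. Its interaction was -2.23 ± 0.32 (SE; unadjusted p = 2.17e-05, adjusted p = 0.141), the negative gene of smallest p among those with counts in every group, and Fkbp5 fell in Combination against both CSF1Ri (log2 fold change -2.27 ± 0.23, edgeR adjusted p = 0.0066) and Control (-1.26 ± 0.23, adjusted p = 0.0362). Itpkb, a kinase of inositol trisphosphate, had 12.7, 8.71 and 11.6 CPM in the Combination libraries, 29.7, 35.1 and 39.6 CPM with CSF1Ri, 30.2, 20 and 27.3 CPM with the CD40 agonist and 28.7, 24 and 23.1 CPM in Control. The Combination was lowest without overlap, and Itpkb fell against CSF1Ri and Control (edgeR adjusted p = 0.0122 and 0.0478), with an interaction of -1.69 ± 0.33 (SE; unadjusted p = 0.000344, adjusted p = 0.23). CSF1Ri alone lay above Control without overlap, and the CD40 agonist overlapped Control.

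Of the 12 protein-coding genes of smallest p in each direction, 5 had a group without counts and 2 more, Ccdc158 and Slc1a1, a group with under 10 counts, so they are given by level and not by fold. The mitotic checkpoint kinase Bub1b had 10.1, 3.86 and 15.5 CPM in the Combination, no counts with CSF1Ri, 6.35, 6.52 and 1.37 CPM with the CD40 agonist and 3.4, 2.78 and 2.71 CPM in Control. The DNA ligase Lig4 had 5.85, 3.63 and 6.84 CPM in the Combination, no counts with CSF1Ri and 1.58, 2.72 and 2.24 CPM in Control. Kctd4 and AY761185 likewise had no counts with CSF1Ri. Gpld1, a phospholipase of GPI anchors, had 2.07, 5.59 and 5.26 CPM in the Combination, 13.9, 14.1 and 3.44 CPM with CSF1Ri, 3.32, 6.17 and 2.88 CPM with the CD40 agonist and no counts in Control. A count of 0 over a group allows up to 0.0332 CPM with CSF1Ri and 0.0318 CPM in Control (3 counts over the group, counting error only). Of the 28 cell cycle genes 22 had a positive interaction, with a median of 0.86, 5 positive and 0 negative members at an unadjusted p below 0.05 (4.64% and 3.51% of all genes) and 5 that rose in Combination against CSF1Ri (1.24%). They summed to 937, 505 and 759 CPM in the Combination libraries, 347, 288 and 287 CPM with CSF1Ri, 480.5, 512 and 629.9 CPM with the CD40 agonist and 323, 323 and 331 CPM in Control. The 9 tested melanocyte and melanoma markers summed to 119.8, 27.7 and 62.5 CPM in the Combination libraries, 16, 11.8 and 11.5 CPM with CSF1Ri, 60.7, 38.7 and 44.4 CPM with the CD40 agonist and 18.2, 20 and 25.2 CPM in Control and the 10 tested keratinocyte markers to 84.1, 4.98 and 94.4 CPM in the Combination libraries, 8.42, 12.2 and 17.4 CPM with CSF1Ri, 19.8, 14.5 and 28.3 CPM with the CD40 agonist and 23.7, 71.8 and 25.1 CPM in Control, both high in Combination replicates 1 and 3, and their part in the cell cycle result was not tested. The melanocyte markers Mlana, Tyrp1 and Sox10 had no counts with CSF1Ri.

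The metabolic lists had medians near 0. Gapdh, the glycolytic dehydrogenase, had 440.3, 489 and 426 CPM in the Combination libraries, 250.2, 244 and 213 CPM with CSF1Ri, 257, 327 and 273 CPM with the CD40 agonist and 289, 241 and 267 CPM in Control. The Combination was highest without overlap, the interaction was 0.83 ± 0.18 (SE; unadjusted p = 0.000646, adjusted p = 0.263), and Gapdh rose against CSF1Ri and Control (edgeR adjusted p = 0.0103 and 0.0257). Tpi1, the triose isomerase just before it in glycolysis, had an interaction of 0.89 ± 0.21, yet the 24 glycolysis and hypoxia genes divided evenly, 12 above 0 and 12 below. All 20 nuclear genes of oxidative phosphorylation and all 13 mitochondrially encoded genes were above 0, with small medians of 0.21 and 0.16 and 2 and 1 members at an unadjusted p below 0.05. Of the 23 alternative activation genes 15 were below 0, with a median of -0.56 and 2 members on each side at an unadjusted p below 0.05. The median of that list was -0.10 without Combination replicate 2 and -0.37 without the pair of libraries that stood apart. The 22 chemokines had a median of -0.33, which became 0.57 without the pair of libraries that stood apart. The remaining pathway lists had medians between -0.43 for Fc receptors and 0.35 for heat shock genes. Among them the pattern recognition list, at -0.03, stood at -0.55 without that pair of libraries, with 1 positive and 10 negative members of 24 at an unadjusted p below 0.05 and 3 called negative (0.156% of all genes). The classical monocyte list stood at -0.52 there, against -0.11 with all libraries, with 6 of 16 negative at that level.

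**Figure D5:**
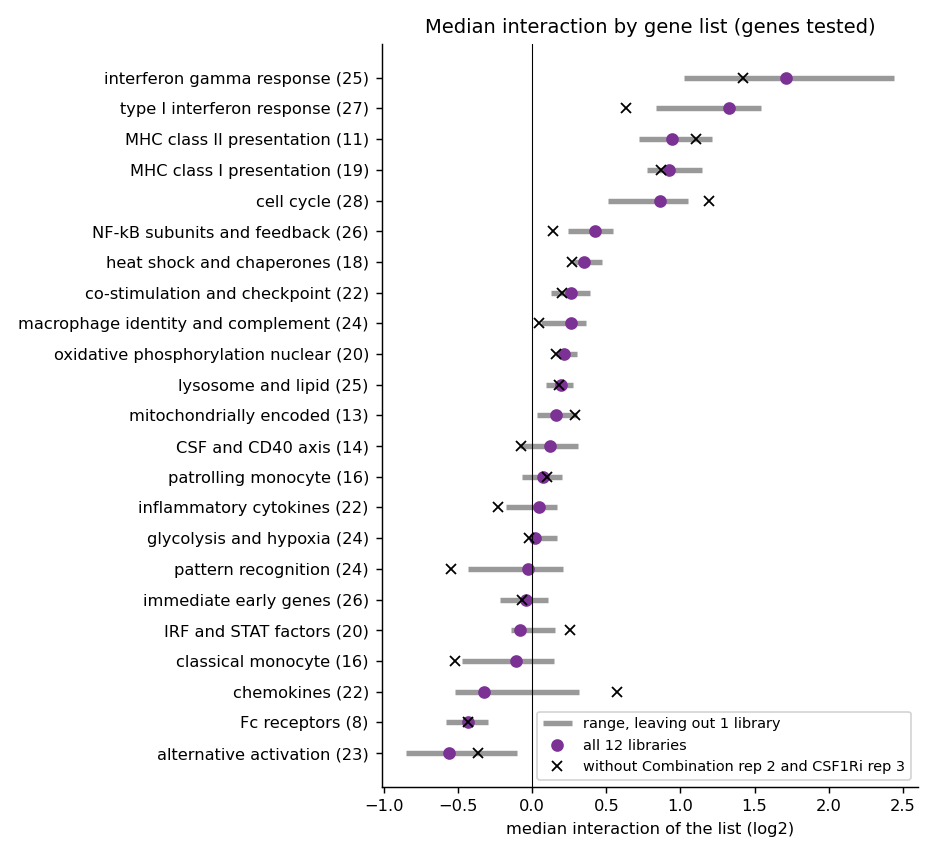
Median interaction (log2, horizontal axis) of the 23 pathway lists with the number of genes tested, over all 12 libraries (points), over the fits that each leave out 1 library (grey range) and without Combination replicate 2 and CSF1Ri replicate 3 (crosses). The interferon, class I, class II and cell cycle lists stay above 0 in every one of these fits. So do lists with smaller medians, which are NF-kB, heat shock, co-stimulation, macrophage identity, lysosome and lipid, and both oxidative phosphorylation lists, nuclear and mitochondrially encoded. The chemokine median changes sign, as do those of several other lists, among them inflammatory cytokines, immediate early genes, classical monocyte and pattern recognition.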

How the data were processed

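Bulk RNA-seq of 12 pooled macrophage samples was analysed, 3 in each of 4 groups. Libraries were made without strand information from 50 ng of RNA and read as 75 bp pairs, 6 libraries per lane, per the labels' protocols. STAR, HTSeq and DESeq2 are named with mm10 in the submitters' processing notes, without versions. The deposited files hold estimated counts per transcript, in the layout of a transcript quantifier whose name the sources used here do not give. Without strand, overlapping genes cannot be told apart. TPM values also stand in the deposited files, per the file headers, and were not tested. Of 111462 transcripts 110203 (98.9%) matched GENCODE M21, and the others held 0.378 to 0.436% of counts. The authors' estimated counts were summed to 34989 genes and rounded to whole numbers.

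All 12 libraries were fitted with edgeR 4.0.16 in R 4.3.3 (TMM scaling, filterByExpr, quasi-likelihood F test with robust estimation, Benjamini-Hochberg adjustment over 16027 genes). CPM values use TMM-scaled library sizes, and the SE is the log2 value over the square root of F. Alternatives were DESeq2 1.42.0, limma 3.58.1 voom, other scalings and filters, a replicate block and leaving out libraries. The fit and contrast were tested on simulated data. Those were less variable than these libraries, so that test does not give the power or error rate here. The members and lists were chosen with earlier results of these data known. Named genes are the 12 protein-coding genes of smallest interaction p in each direction, the 2 of smallest p in each of 37 lists, and Cd40, Csf1r, Csf1, Tnf and Tnfaip3, and others are named as chosen after their values were seen. A gene that this rule picks is not reported here. No fold is given for a gene with under 10 counts in a group. Reads carry no molecular identifiers, so limits for counts of 0 cover counting error only.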

Additional observations from a re-analysis of the deposited data

Results flagged for a closer look

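For 10 of the named genes the Combination and CSF1Ri libraries did not overlap, the CD40 agonist and Control libraries did not overlap, and the antibody went in opposite directions with and without the inhibitor. Over all genes tested, 41 (0.256%) were higher with the inhibitor and lower without it, and 43 (0.268%) the reverse. The difference itself was tested as the interaction, which no gene passed by edgeR over 12 libraries. The antibody groups were higher on inhibitor chow and lower on normal chow for Nfkb2 (interaction 1.08 on the log2 scale), Ifit3 (2.50), Ifit2 (4.04) and Gbp3 (2.17). Kctd4 and Lig4 went the same way, with a mean of 2.22 and 5.44 CPM in the Combination and a group without counts. The reverse held for Pbld1 (-3.25) and Ear2 (-1.55). It also held for Ccdc158 and Slc1a1, which averaged 0.0374 and 0.0402 CPM in the Combination and had a group with under 10 counts.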

How the results depend on the processing

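The interaction count of 0 held under edgeR with the other scalings, filters and estimators and under limma voom, and was 238 by DESeq2, 66 without both Combination replicate 2 and CSF1Ri replicate 3 and 0 to 15 when 1 library was left out, with 15 without CSF1Ri replicate 3 and 1 without CSF1Ri replicate 1. In Combination against CSF1Ri the 311 calls became 1676 by DESeq2, 524 by edgeR with bias adjustment, 632 without both libraries and 22 to 429 leaving out 1 library, lowest without CSF1Ri replicate 2. In Combination against Control the 124 calls became 1130 by DESeq2, 282 with bias adjustment, 232 without both libraries and 0 to 154 leaving out 1 library. They were 0 without Control replicate 1 or 3 and 1 without Control replicate 2. In Combination against CD40 agonist the 0 calls became 350 by DESeq2, 7 by limma voom, 14 with bias adjustment, 8 without both libraries and 0 to 6 leaving out 1 library. In CSF1Ri against Control the 2 calls became 455 by DESeq2, 0 by limma voom, 4 without robust estimation, 338 without both libraries and 0 to 124 leaving out 1 library. In CD40 agonist against Control the 0 calls became 247 by DESeq2, 5 by limma voom, 10 with bias adjustment, 38 without both libraries and 0 to 7 leaving out 1 library. The causes were not tested.

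A few named interactions changed sign. Leaving out 1 library, Ltf lay between -0.068 (without Control replicate 2) and 6.84, and Cd4 between -3.56 and 0.078 (without CD40 agonist replicate 3). Csf1 lay between -0.48 and 0.073 (without CSF1Ri replicate 2) and Csf1r between -0.25 (without Combination replicate 2) and 0.30. Without both libraries that stood apart Csf1r was -0.28 and Tnfaip3 -0.17. Whether replicate numbers pair the samples was not settled. Over 18 same-numbered pairs the correlation of deviations was -0.061 to 0.060, and over 36 differently numbered pairs -0.107 to 0.073. These ranges overlap, yet 7 of 12 libraries correlated best with their own number, so pairing is not excluded. With a replicate block the calls were 0 for the interaction, 121 for Combination against CSF1Ri, 0 for Combination against CD40 agonist, 59 for Combination against Control, 3 for CSF1Ri against Control and 1 for CD40 agonist against Control. With 3 libraries a group, of which 3 in all stood apart from their groups, an interaction that is not called is not shown to be absent.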
